A study of Mus musculus with 4 samples.

Results

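The high-affinity receptor for immunoglobulin E, its chains and the kinases and adaptors that act beside it were followed in sorted mouse blood progenitors labelled as deleted for Hhex, a homeobox transcription factor, or as Wild-type. The set holds 10 genes chosen by function, with earlier results of these data known. Matched by symbol and Entrez identifier, they stand among 26286 genes in the count table. They are the receptor chains Ms4a2, Fcer1a and Fcer1g, the kinases Lyn, Syk, Zap70 and Btk, and the adaptors Lat, Lat2 and Lcp2. RNA sequencing covered LSK cells (lineage-negative, Sca-1-positive, Kit-positive) from bone marrow of C57BL/6 mice, with 2 libraries labelled Hhex-deleted and 2 libraries labelled Wild-type. The labels give the genotype as a deletion of Hhex, while alleles, the means of deletion, age, sex and any pooling of mice were not given in the sources used here. Whether libraries of a group stem from different animals was not given either. The libraries labelled Hhex-deleted differ in sex-linked genes (Xist and Y-linked genes), so they are not repeats of 1 RNA sample, whereas the spread between the Wild-type libraries may be technical.

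On mast cells and basophils the receptor consists of an alpha chain that binds immunoglobulin E (Fcer1a), a beta chain that amplifies the signal and in mice is needed for the receptor to reach the surface (Ms4a2), and a gamma chain that other Fc receptors also use (Fcer1g). When antigen cross-links the receptor, Lyn phosphorylates the beta and gamma chains, Syk docks on them, and Syk phosphorylates the membrane adaptors Lat and Lat2. Lat then gathers Lcp2 (SLP-76), Btk and phospholipase C gamma, which leads to calcium entry and granule release. Zap70 is the relative of Syk that serves the T cell receptor.

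Total counts lay between 27871827 and 29501591 per library. Hhex itself stood at 179 and 188 CPM (counts scaled to library size, per 1e+06 reads) in the libraries labelled Hhex-deleted, against 127 and 115 CPM in Wild-type, a log2 fold change of 0.60 ± 0.09 (edgeR SE, adjusted p = 0.0271). Counts per gene also take reads from exons outside a deleted stretch, so the deletion itself cannot be checked from this value, and each direction refers to the labels. With Wild-type replicate 1 or Wild-type replicate 2 left out, Hhex no longer passed (adjusted p = 0.0575 and 0.148, in a range of 2e-07 to 0.148 over 10 alternatives). Kit stood at 605 and 698 CPM in the libraries labelled Hhex-deleted, against 566 and 601 CPM in Wild-type. Ly6a, which encodes Sca-1, stood at 20.7 and 42.5 CPM in the libraries labelled Hhex-deleted, against 25.4 and 25.4 CPM in Wild-type. Xist, the RNA that silences an X chromosome in females, stood at 2662 CPM in labelled Hhex-deleted replicate 1 and at 1.89 to 2.66 CPM in the other 3 libraries. The Y-linked genes Ddx3y, Eif2s3y, Kdm5d and Uty stood at 0.0685 to 0.343 CPM in that library and at 38.3 to 138 CPM in the other 3. By these markers the group labelled Hhex-deleted holds 1 female and 1 male library while both Wild-type libraries are male, and results on members are also given without the female library.

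Promoter sequences of the members are given first, for description. Windows reaching from 250 bases before to 50 bases after an annotated start were found for 8 of the 10 members in RefSeq (build GRCm38.p6), 11 windows in all, with none matched for Lyn and Lat2. They were searched on both strands for AGATAA and TGATAA, the usual core bound by GATA factors, which 18.6% of all 32851 windows of the same length hold at least once. The windows of Ms4a2 and Fcer1a are shown because they belong to the receptor chains that rose, and that of Lat because this adaptor rose and its window holds no match. Capitals mark the matches, and each sequence runs 5′ to 3′ on the strand of its gene. Ms4a2 is shown from chr19:11623670-11623969, Fcer1a from chr1:173227180-173227479 and Lat from chr7:126369519-126369818, all on the minus strand.
Ms4a2: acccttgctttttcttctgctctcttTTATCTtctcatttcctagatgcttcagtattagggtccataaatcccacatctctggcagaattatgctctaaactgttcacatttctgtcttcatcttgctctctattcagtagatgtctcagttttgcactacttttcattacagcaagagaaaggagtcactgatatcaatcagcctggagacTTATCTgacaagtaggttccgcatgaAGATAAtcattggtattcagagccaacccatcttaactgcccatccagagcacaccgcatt
Fcer1a: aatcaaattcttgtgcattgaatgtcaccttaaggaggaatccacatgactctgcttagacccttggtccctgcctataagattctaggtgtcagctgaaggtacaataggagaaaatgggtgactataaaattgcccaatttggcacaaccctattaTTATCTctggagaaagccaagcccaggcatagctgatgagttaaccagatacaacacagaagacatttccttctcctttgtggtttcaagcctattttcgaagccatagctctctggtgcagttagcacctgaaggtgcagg
Lat: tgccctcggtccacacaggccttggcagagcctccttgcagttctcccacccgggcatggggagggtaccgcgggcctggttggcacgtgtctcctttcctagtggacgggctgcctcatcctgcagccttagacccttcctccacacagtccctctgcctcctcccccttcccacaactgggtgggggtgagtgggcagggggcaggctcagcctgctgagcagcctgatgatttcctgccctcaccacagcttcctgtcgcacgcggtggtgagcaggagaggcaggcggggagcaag

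The Ms4a2 window holds 3 matches, which begin 224, 37 and 11 bases before the start, and 0.502% of all windows hold at least 3. Fcer1a has 1 match, Lcp2 has 2 and the second listed window of Syk has 1. No match to AGATAA or TGATAA lies in the windows of Fcer1g, Zap70, Btk or Lat. The AT-rich homeobox cores AATTAA and TATTAA, searched in the same way, were found in 17.5% of all windows and, among the members' windows, in that of Lcp2 with 1 match. A match is a stretch of letters and not a measured binding site. Whether matches bear on the members' changes was not tested.

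Across the set, 6 of 10 members rose in the libraries labelled Hhex-deleted and none fell. All 10 passed the filter on low counts. Over all 14912 tested genes, 2.6% passed the test in either direction, 1.48% higher and 1.12% lower. The members were chosen with earlier results of these data known, so their share beside this one is only a description. For 9 of 10 members the libraries of both groups did not overlap (8 higher, 1 lower), as was so for 45.5% of all tested genes (21.9% higher). The members' median log2 fold change was 0.72, against -0.0055 over all tested genes. None of the members was lower at an unadjusted p under 0.05 by edgeR, and DESeq2 and limma-voom called none lower. In these bulk samples, more cells of a type that carries these RNAs and more RNA per cell cannot be told apart.

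**Figure D1:**
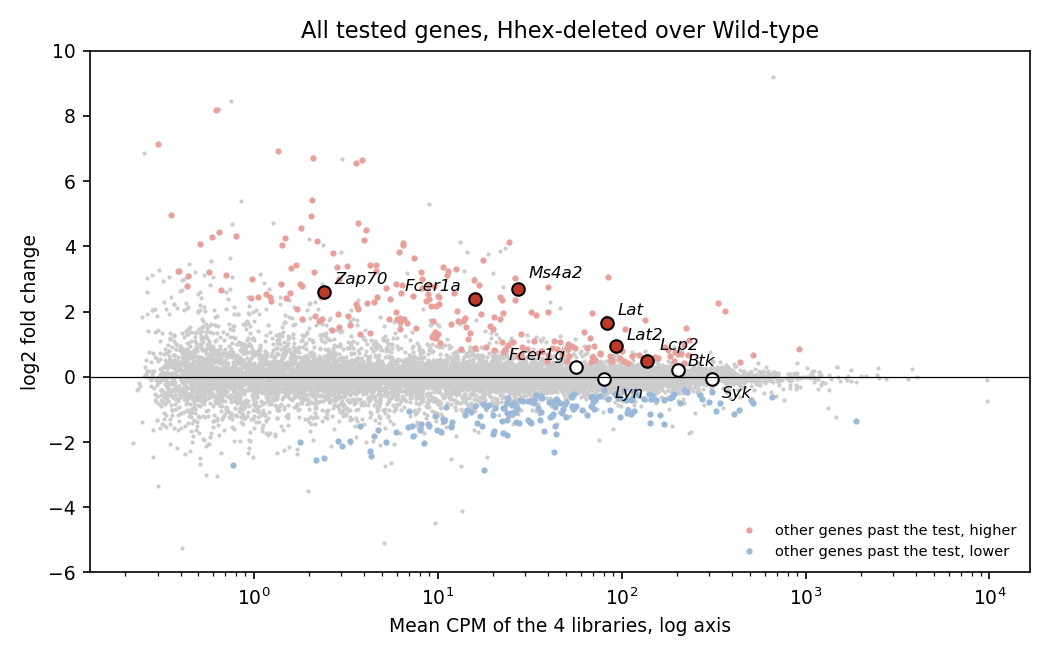
Log2 fold change of each tested gene (Hhex-deleted over Wild-type, y axis) against its mean CPM over the 4 libraries (x axis, log scale), with the 10 members named. Filled large points are the 6 members past the test, from Lcp2 at 0.49 to Ms4a2 at 2.71, and open large points are the 4 that did not pass, from -0.07 to 0.31.

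Among the receptor chains, the beta and alpha chains rose and the gamma chain did not pass the test. Ms4a2, the beta chain, was counted 1468 and 1355 times in the libraries labelled Hhex-deleted, against 208 and 200 times in Wild-type. On the CPM scale it stood at 50.3 and 44.9 in the libraries labelled Hhex-deleted, against 7.588 and 7.001 in Wild-type, so both were far above Wild-type. Its log2 fold change was 2.71 ± 0.12 (edgeR SE, adjusted p = 0.00183), a 6.53-fold difference, and by p-value it ranked 2 of 14912 genes.

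Fcer1a, the chain that binds immunoglobulin E, had 32.1 and 21.6 CPM in the libraries labelled Hhex-deleted, against 3.90 and 6.41 CPM in Wild-type. The groups did not overlap, but both held a wide spread, with replicate 1 the higher library in one and the lower in the other. The log2 fold change was 2.38 ± 0.31 (edgeR SE, adjusted p = 0.0309). It did not pass with Wild-type replicate 1 left out (adjusted p = 0.0501, log2 fold change 2.07), in a range of 1.1e-12 to 0.0693 over 10 alternatives.

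Fcer1g, the gamma chain, had 70.0 and 54.7 CPM in the libraries labelled Hhex-deleted, against 48.8 and 51.6 CPM in Wild-type. Only labelled Hhex-deleted replicate 1 stood clearly apart. The log2 fold change was 0.31 ± 0.13 (edgeR SE, adjusted p = 0.322), with an approximate 95% interval of -0.0047 to 0.63.

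Within each library, the chains could be compared per length as RPKM, which is CPM divided by gene length in kilobases. The ratio of Ms4a2 to Fcer1g was 0.468 and 0.535 in the libraries labelled Hhex-deleted, against 0.101 and 0.0884 in Wild-type. For Fcer1a to Fcer1g it was 0.294 and 0.253 in the libraries labelled Hhex-deleted, against 0.0513 and 0.0796 in Wild-type. Gamma chain RNA was thus above that of either partner in all 4 libraries, by less in those labelled Hhex-deleted. The ratio of Ms4a2 to Fcer1a, 1.59 and 2.11 in the libraries labelled Hhex-deleted, against 1.97 and 1.11 in Wild-type, overlapped between groups.

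**Figure D2:**
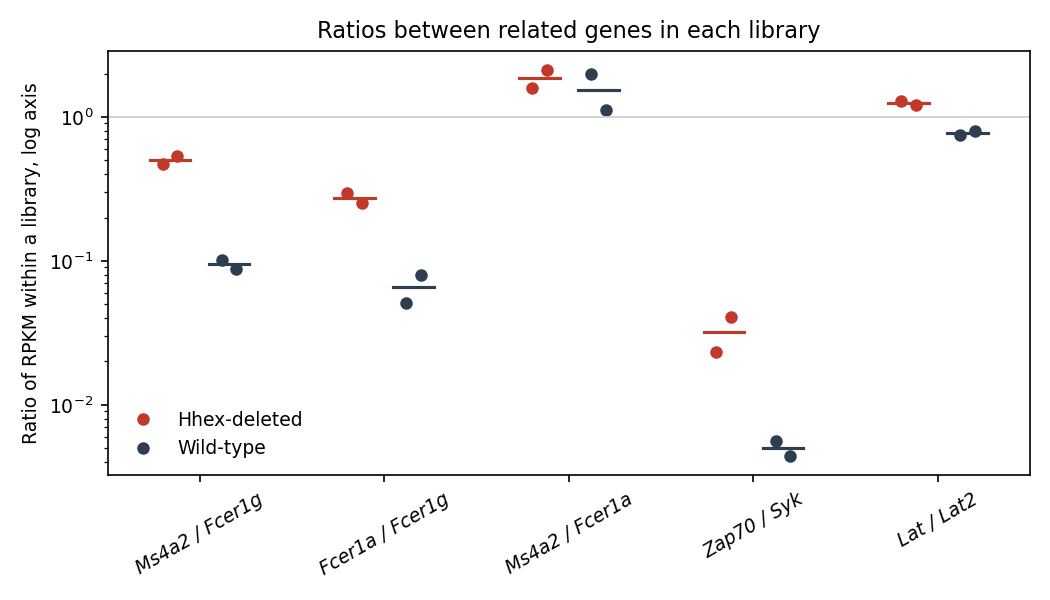
Ratio of RPKM between related genes within a library (y axis, log scale), with a point per library and a bar at the mean of each group of 2. The groups stand apart in every pair drawn except Ms4a2 over Fcer1a, where 1.59 and 2.11 in Hhex-deleted overlap 1.97 and 1.11 in Wild-type.

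Of the 4 kinases, only Zap70 passed the test. Lyn, the Src family kinase that acts first at the receptor, had 75.7 and 80.6 CPM in the libraries labelled Hhex-deleted, against 79.2 and 84.4 CPM in Wild-type. These ranges overlapped, and the log2 fold change was -0.07 ± 0.08 (edgeR SE, adjusted p = 0.797) with an interval of -0.26 to 0.13.

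Syk, the kinase that docks on the phosphorylated chains, had 302 and 300 CPM in the libraries labelled Hhex-deleted, against 318 and 314 CPM in Wild-type. It was the member with the highest CPM, and its libraries differed little within a group. Its log2 fold change of -0.07 ± 0.07 (edgeR SE, adjusted p = 0.74) had an interval of -0.25 to 0.10.

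Zap70 was the lowest member, with counts of 87 and 158 in the libraries labelled Hhex-deleted, against 21 and 17 in Wild-type. Scaled to CPM this was 2.98 and 5.24 in the libraries labelled Hhex-deleted, against 0.766 and 0.595 in Wild-type, so the groups did not overlap and labelled Hhex-deleted replicate 2 was the highest. The log2 fold change was 2.59 ± 0.39 (edgeR SE, adjusted p = 0.0305). The adjusted p exceeded 0.05 with labelled Hhex-deleted replicate 2 left out (0.0502), as with Wild-type replicate 1 (0.078) or Wild-type replicate 2 (0.148), in a range of 1.0e-04 to 0.148 over 10 alternatives. Per length, Zap70 RNA was 0.0231 and 0.0409 of that of Syk in the libraries labelled Hhex-deleted, against 0.00563 and 0.00443 in Wild-type. Syk therefore remained far above its relative in all 4 libraries.

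Btk, the Tec family kinase that acts on phospholipase C gamma, had 217 and 215 CPM in the libraries labelled Hhex-deleted, against 193 and 181 CPM in Wild-type. The log2 fold change was 0.21 ± 0.08 (edgeR SE, adjusted p = 0.254), with an interval of 0.02 to 0.40 before adjustment over all genes. Btk lies on the X chromosome. The library with Xist had 217 CPM and the other library labelled Hhex-deleted 215 CPM, and an effect of sex was not tested.

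All 3 adaptors rose. Lat, the membrane adaptor on which the signal complex is built, had 117 and 134 CPM in the libraries labelled Hhex-deleted, against 42.5 and 38.3 CPM in Wild-type. Both libraries labelled Hhex-deleted were well above Wild-type, with a log2 fold change of 1.64 ± 0.10 (edgeR SE, adjusted p = 0.00407), a 3.11-fold difference that ranked 11 of 14912 genes by p-value.

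Lat2, a related membrane adaptor (also known as NTAL or LAB) that B cells and mast cells use, had 112 and 135 CPM in the libraries labelled Hhex-deleted, against 69.1 and 58.9 CPM in Wild-type. The log2 fold change was 0.94 ± 0.13 (edgeR SE, adjusted p = 0.0239), and it did not pass with Wild-type replicate 2 left out (0.0932, in a range of 4.2e-09 to 0.0932 over 10 alternatives). Both adaptors rose, but their order per length within a library differed between groups. The ratio of Lat to Lat2 was 1.28 and 1.21 in the libraries labelled Hhex-deleted, against 0.750 and 0.794 in Wild-type.

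Lcp2, the cytosolic adaptor that joins Lat to the enzymes, had 161 and 158 CPM in the libraries labelled Hhex-deleted, against 113 and 115 CPM in Wild-type. Replicates lay close together and the groups were apart, at a log2 fold change of 0.49 ± 0.07 (edgeR SE, adjusted p = 0.0302). This was the smallest change among the members past the test. Lcp2 did not pass with Wild-type replicate 1 (0.149) or Wild-type replicate 2 (0.157) left out, with adjusted p-values in a range of 2.5e-06 to 0.157 over 10 alternatives, while the log2 fold change stayed between 0.47 and 0.51.

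With the Xist library (labelled Hhex-deleted replicate 1) left out, only 1 library labelled Hhex-deleted remained. Spread between replicates then came from the Wild-type pair only, so effect sizes alone are given. For the 6 members past the main test, log2 fold changes were then 2.62 for Ms4a2, 2.06 for Fcer1a, 2.94 for Zap70, 1.73 for Lat, 1.07 for Lat2 and 0.47 for Lcp2. An effect of sex was not tested. Some members lost their call with labelled Hhex-deleted replicate 2 or either Wild-type library left out, and calls over all tested genes shifted as well. Over the fits with 1 library left out, log2 fold changes ranged from 2.62 to 2.79 for Ms4a2 and from 1.55 to 1.73 for Lat. The ranges were 2.06 to 2.79 for Fcer1a, 2.13 to 2.94 for Zap70, 0.81 to 1.07 for Lat2 and 0.47 to 0.51 for Lcp2.

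**Figure D3:**
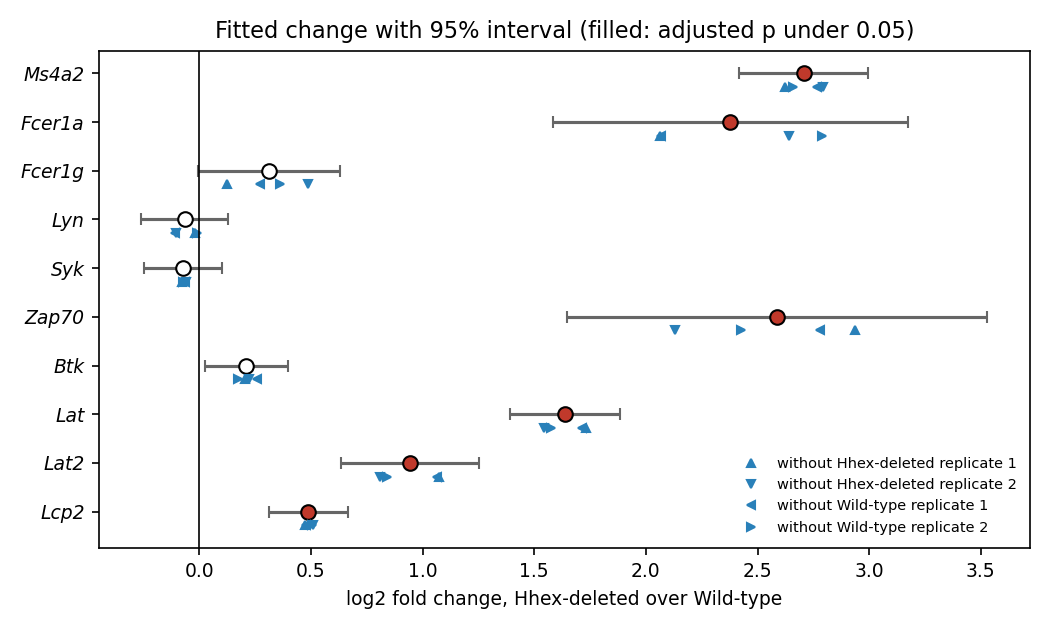
Log2 fold change of each member (x axis, Hhex-deleted over Wild-type) with its approximate 95% interval, filled where the adjusted p was under 0.05, and small triangles for the value with each library left out. Ms4a2 and Lat have narrow intervals far from 0, Fcer1a and Zap70 wide ones, and the intervals of Lyn, Syk and, narrowly, Fcer1g include 0.

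The levels per length gave an order of members in each group. In the libraries labelled Hhex-deleted, Lat (95.03 and 108.7 RPKM), Btk (85.6 and 84.9) and Lat2 (74.0 and 89.5) stood at the top together with Fcer1g (106 and 83.1), whose spread reached all 3. Lat was above both Btk and Lat2 in each library, and Btk lay within the spread of Lat2. Below them came Syk (59.1 and 58.8 RPKM), then Ms4a2 (49.8 and 44.5) and Lcp2 (48.2 and 47.2), which overlapped. Lyn (21.9 and 23.3 RPKM) lay within the spread of Fcer1a (31.3 and 21.0), and Zap70 was last at 1.37 and 2.40.

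In Wild-type, Fcer1g (74.2 and 78.4 RPKM) and Btk (76.1 and 71.3) overlapped at the top, followed by Syk (62.4 and 61.5) and Lat2 (45.8 and 39.1). Lat (34.4 and 31.0 RPKM) and Lcp2 (33.8 and 34.3) overlapped, above Lyn (22.9 and 24.4). The beta and alpha chains stood near the bottom, Ms4a2 at 7.51 and 6.93 RPKM and Fcer1a at 3.80 and 6.24, with Zap70 last at 0.351 and 0.273. Among all tested genes, Ms4a2 exceeded 85.9% and 84.5% in the libraries labelled Hhex-deleted, against 41.6% and 39.8% in Wild-type.

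**Figure D4:**
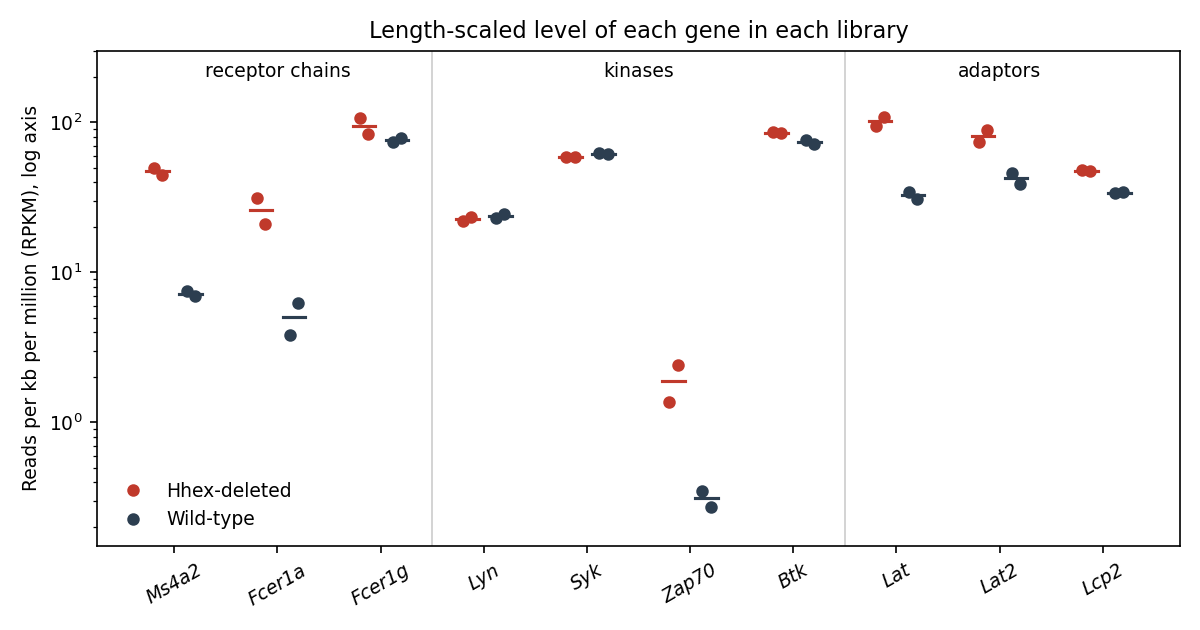
Level of each member in RPKM (y axis, log scale) in each of the 4 libraries, with a bar at the mean of each group of 2, grouped as receptor chains, kinases and adaptors. Ms4a2, Fcer1a and Zap70 show the widest gaps between groups, Lat a smaller one, and the points of Lyn and Syk lie nearly level.

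The other genes of the receptor pathway were taken as 7 lists of 80 genes, of which 77 were tested. Of these 3 rose and 2 fell, which is 6.49% beside 2.6% of all tested genes, and their median log2 fold change was -0.03. These lists too were chosen with earlier results of these data known. DESeq2 called 7 higher and 7 lower, and limma-voom called 2 and 2.

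Among other Src and Tec family kinases 1 of 10 rose. Yes1, a broadly expressed Src family kinase, had 10.96 and 17.84 CPM in the libraries labelled Hhex-deleted, against 4.12 and 4.66 CPM in Wild-type, a log2 fold change of 1.71 ± 0.27 (edgeR SE, adjusted p = 0.0361). It did not pass with Wild-type replicate 1 (0.138) or Wild-type replicate 2 (0.152) left out, with adjusted p-values in a range of 4.8e-06 to 0.152 over 10 alternatives. Fyn, which acts beside Lyn through Gab2, stood at a log2 fold change of 0.49 without passing the test (edgeR adjusted p = 0.0641).

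Of 15 other adaptors and exchange factors 1 rose. Blnk, the adaptor that plays the part of Lcp2 in B cells, had 15.1 and 18.7 CPM in the libraries labelled Hhex-deleted, against 2.63 and 3.50 CPM in Wild-type. Its log2 fold change of 2.46 ± 0.22 (edgeR SE, adjusted p = 0.00802) passed in all 10 alternatives. Pag1, a membrane adaptor that holds the inhibitory kinase Csk, stood at 0.39 (edgeR adjusted p = 0.136).

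Of 14 genes of lipid signalling and calcium entry 1 rose, Prkca, a calcium-dependent protein kinase C. It had 61.7 and 69.4 CPM in the libraries labelled Hhex-deleted, against 36.6 and 36.4 CPM in Wild-type, a log2 fold change of 0.84 ± 0.09 (edgeR SE, adjusted p = 0.0144). Prkca did not pass with Wild-type replicate 2 left out (0.0571, in a range of 7.3e-09 to 0.0571 over 10 alternatives). Prkcd, a calcium-independent relative, stood at -0.36 (edgeR adjusted p = 0.068). In the MAP kinase arm none of 10 genes passed edgeR's test, with 2 lower before adjustment (p under 0.05), 1 lower by DESeq2 and 0 called by limma-voom. Mapk3, which encodes ERK1, stood at a log2 fold change of -0.39 and Map2k1, its activating kinase, at -0.22.

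Among 12 inhibitors of receptor signalling 1 fell. Dok2, an adaptor that restrains Ras signalling, had 19.0 and 17.5 CPM in the libraries labelled Hhex-deleted, against 39.5 and 31.9 CPM in Wild-type, a log2 fold change of -0.97 ± 0.13 (edgeR SE, adjusted p = 0.0253). Dok2 did not pass with labelled Hhex-deleted replicate 2 left out (0.0651) or with Wild-type replicate 1 left out (0.0808), with adjusted p-values in a range of 4.1e-06 to 0.0808 over 10 alternatives. Fcgr2b, the inhibitory receptor for immunoglobulin G, stood at -0.64 without passing (edgeR adjusted p = 0.117).

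Of 11 tested genes of mediator synthesis 1 fell. Ptgs1, the constitutive prostaglandin synthase, had 38.0 and 36.9 CPM in the libraries labelled Hhex-deleted, against 65.6 and 80.9 CPM in Wild-type, a log2 fold change of -0.97 ± 0.12 (edgeR SE, adjusted p = 0.019). With labelled Hhex-deleted replicate 2 left out it did not pass (0.0602, in a range of 1.2e-08 to 0.0602 over 10 alternatives). The cytokine gene Il6 had 4.56 and 3.85 CPM in the libraries labelled Hhex-deleted, against 1.02 and 0.280 CPM in Wild-type, and did not pass (edgeR adjusted p = 0.0736). Of 5 tested other receptors that pair with Fcer1g none passed edgeR's test, with 2 higher and 1 lower before adjustment (p under 0.05), 1 and 1 by DESeq2 and 0 by limma-voom. Fcgr3, a low-affinity receptor for immunoglobulin G, stood at a log2 fold change of -0.86 and Clec4e, a lectin receptor, at 0.79.

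**Figure D5:**
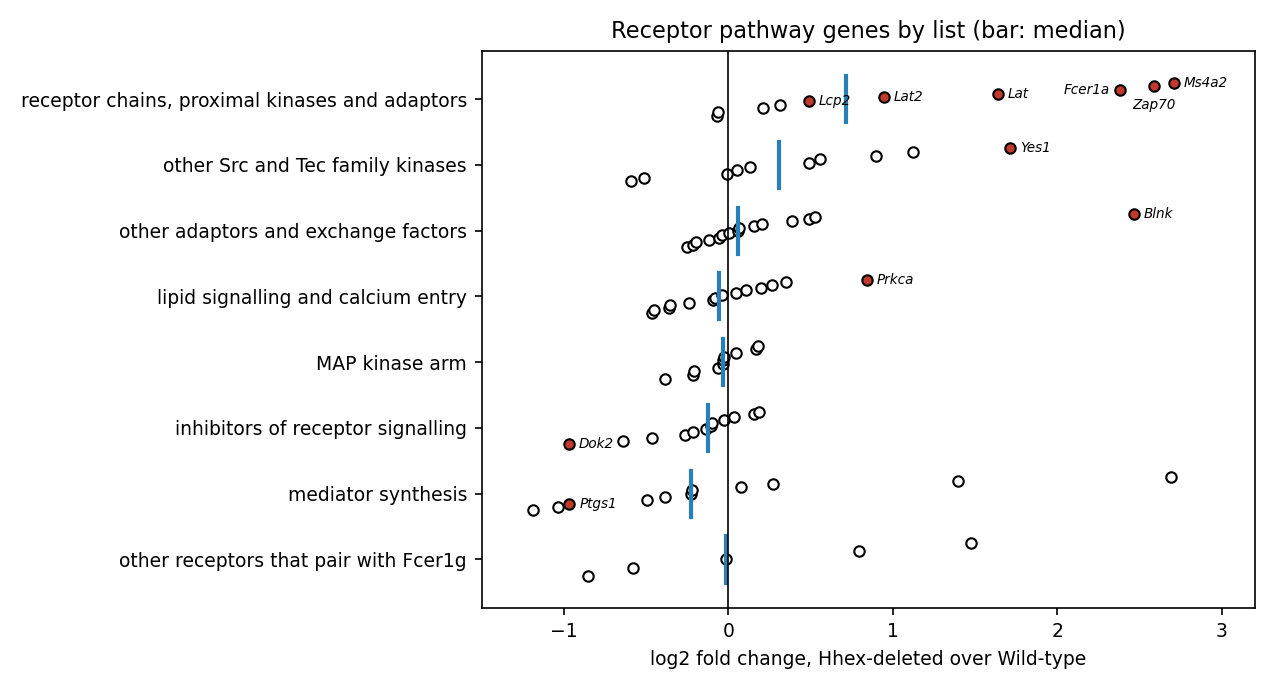
Log2 fold change (x axis, Hhex-deleted over Wild-type) of the members in the top row and of the tested genes of the 7 pathway lists below, with a point per gene, filled and named where the adjusted p was under 0.05, and a bar at each median. The members' median is 0.72, while the medians of the 7 lists lie between -0.23 and 0.31.

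Marker genes of some cell types that use these molecules moved as well. No marker of T and natural killer cells or of megakaryocytes and platelets passed edgeR's test. Sums of CPM weigh each list toward its genes of highest CPM. Summed over 8 matched mast cell and basophil markers, the level was 1306 and 1173 CPM in the libraries labelled Hhex-deleted, against 456 and 387 CPM in Wild-type. Of the 6 tested 4 rose (Cpa3, Mcpt8, Prss34 and Il1rl1), and Tpsb2, a mast cell tryptase that was too low to be tested and was named after its counts were seen, had counts of 0 and 0 in the libraries labelled Hhex-deleted, against 6 and 5 in Wild-type. The 6 eosinophil markers summed to 544 and 403 CPM in the libraries labelled Hhex-deleted, against 187 and 208 CPM in Wild-type, and 2 rose (Prg2 and Prg3). Prg3 did not pass with Wild-type replicate 1 (0.122) or Wild-type replicate 2 (0.166) left out, with adjusted p-values of 9.5e-08 to 0.166 over 10 alternatives.

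Several of the 6 B cell markers belong to cells that use Btk, Syk and Lat2. Cd79b, which did not pass, held most of the Wild-type sum. It had 37.2 and 40.5 CPM in the libraries labelled Hhex-deleted, against 30.1 and 32.2 CPM in Wild-type. The 6 markers together summed to 82.6 and 100.8 CPM in the libraries labelled Hhex-deleted, against 36.4 and 40.5 CPM in Wild-type. Of these 4 rose (Cd79a, Igll1, Vpreb1 and Pax5), and Cd79a did not pass with any library but labelled Hhex-deleted replicate 1 left out (adjusted p = 0.051 to 0.0887, in a range of 3.7e-08 to 0.0887 over 10 alternatives). T and natural killer cells use Zap70 and Lat, but which cells carry these RNAs here was not tested. In each library, Cd247 and Lck held most of the T and natural killer cell marker sum. The 10 markers summed to 57.4 and 87.3 CPM in the libraries labelled Hhex-deleted, against 52.7 and 56.7 CPM in Wild-type. None of the 7 tested passed edgeR's test, with 2 higher before adjustment (p under 0.05) and 0 called by DESeq2 or limma-voom. Cd3e, a chain that defines T cells and was also too low to be tested, had counts of 2 and 8 in the libraries labelled Hhex-deleted, against 0 and 3 in Wild-type.

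The 7 megakaryocyte and platelet markers, from cells that also use Lat, summed to 692 and 543 CPM in the libraries labelled Hhex-deleted, against 518 and 455 CPM in Wild-type. None passed edgeR's test, with 2 higher before adjustment (p under 0.05), 1 by DESeq2 and 0 by limma-voom. The 8 granulocyte and monocyte markers summed to 12242 and 8769 CPM in the libraries labelled Hhex-deleted, against 17436 and 21251 CPM in Wild-type, and 2 fell (Elane and Ly6c2). Mpo, which did not pass, held most of each sum. It had 8748 and 5846 CPM in the libraries labelled Hhex-deleted, against 11153 and 13052 CPM in Wild-type. Elane did not pass with labelled Hhex-deleted replicate 1 (0.175) or labelled Hhex-deleted replicate 2 (0.25) left out, with adjusted p-values of 2.5e-18 to 0.25 over 10 alternatives. The part of any of these cell types in the members' values was not tested.

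Genes beside the members on the chromosome were read for comparison, up to 2 tested genes on each side in the order of the RefSeq table. Of 40 such neighbours 1 passed the test. Ms4a3, a gene of granulocyte and monocyte progenitors in the same family and cluster as Ms4a2, averaged 256 CPM in the libraries labelled Hhex-deleted and 563 CPM in Wild-type, and was named after its value was seen. Its log2 fold change was -1.14 ± 0.15 (edgeR SE, adjusted p = 0.0253), opposite in sign to that of Ms4a2. Ms4a3 did not pass with labelled Hhex-deleted replicate 1 (0.073) or labelled Hhex-deleted replicate 2 (0.126) left out, with adjusted p-values in a range of 4.7e-13 to 0.126 over 10 alternatives. Spns1, next to Lat, stood at 0.04, and Tomm40l, beside Fcer1g, stood at -0.11. The members lie on chromosomes 1 (Fcer1a, Fcer1g and Zap70), 4 (Lyn), 5 (Lat2), 7 (Lat), 11 (Lcp2), 13 (Syk), 19 (Ms4a2) and X (Btk).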

How the data were processed

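RNA of sorted LSK cells was read in 4 libraries, 2 labelled Hhex-deleted and 2 Wild-type, each placed by its title. The authors deposited raw counts per Entrez gene with gene lengths, and log2 RPKM values for 12662 genes. Per the submitters' processing notes, Subread, featureCounts, limma and build mm9 were used; roles, versions and strand setting were not given in the sources used here. Without strand, reads of overlapping antisense genes cannot be separated.

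Counts were tested in R 4.3.3 with edgeR 4.0.16 (quasi-likelihood, robust, TMM factors, group as the single term, filterByExpr with a minimum count of 10 and total of 15), and p-values were adjusted by Benjamini-Hochberg over 14912 genes with a threshold of 0.05. CPM used the filtered library totals times TMM factors, RPKM divided CPM by the deposited length, and 3 counts equal 0.0995 to 0.109 CPM. The SE is the log2 fold change divided by the square root of F, and 95% intervals follow from it. Alternatives were RLE factors, no filter, DESeq2 1.42.0, limma-voom (limma 3.58.1), limma on the deposited log2 RPKM, each library left out, and a replicate block. The fit was also run on counts simulated with its own dispersions. There edgeR recovered 66% of planted 2-fold and 89% of planted 4-fold changes, with 17 false calls.

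The members and lists were chosen with earlier results of these data known. Every member was named, with the genes of each pathway list past the test, or those of lowest unadjusted p until 2 were named, and the markers past the test, and with Hhex, Xist and Ddx3y as checks. Tpsb2, Cd3e, Cd79b, Cd247, Lck, Mpo, Kit, Ly6a, Eif2s3y, Kdm5d, Uty and neighbouring genes were named outside that rule, after their values were seen. Of 146 list entries 145 were matched, and 1 further marker is not reported here. Symbols came from the deposited tables and RefSeq (GRCm38), whose build differs from the authors'. Coordinates are given for the printed promoter windows only and refer to GRCm38.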

Additional observations from a re-analysis of the deposited data

How the results depend on the processing

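All 100 values of the 10 members under 10 alternatives kept their direction: 86 stayed on the same side of the threshold and 14 lost their call. All losses fell on the 6 members past the main test, since the 4 others had no call to lose. Members higher numbered 6 with RLE factors, no filter or DESeq2 and 5 with limma-voom, but 3 with limma on the deposited log2 RPKM values (Ms4a2, Lat and Lcp2) and 3 to 6 with 1 library left out. No paired origin is stated for equal replicate numbers. With the replicate number as a block 3 members were higher (Ms4a2, Lat and Lcp2), while Fcer1a and Zap70 had an adjusted p of 0.0602 and Lat2 of 0.0613. Deviations of same-numbered libraries correlated at 0.378 over genes, which 2 pairs cannot settle.

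Over the whole table, where 221 were higher and 167 lower, DESeq2 called 493 and 495, limma on the deposited values 114 and 65, edgeR without a filter 284 and 272, and edgeR with 1 library left out 84 to 366 and 40 to 231. Of the other pathway genes, 3 were higher and 2 lower. DESeq2 called 7 and 7, limma on the deposited values 1 and 2, and leaving out 1 library gave 1 to 6 and 0 to 4. Zap70, with 21 and 17 reads in Wild-type, is the member most limited by depth.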
